A study of Homo sapiens with 42 samples.

Results

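FAS, BIRC2 and BCL2L2 are 3 genes of the cell death machinery that act on opposite sides of the decision between death and survival, and they were followed here in Hep3B cells, a human hepatoma line, in 2 culture media. The members are all array probes that name only 1 of these genes, 4 of 13824 probes and 3 of 5631 genes: probe 7116 for FAS, probes 5038 and 8694 for BIRC2, and probe 9868 for BCL2L2. A further probe that names FAS together with another gene was left out. The genes were singled out because their brightest probes had the largest changes of an apoptosis list at 6 h in these same arrays. Their values at 6 h are therefore a description with no test, and only the other times are tested.

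Messenger RNA in total RNA was measured on 42 arrays, 21 from cells challenged with CM, a medium labelled as enriched in pro-inflammatory cytokines, and 21 from cells challenged with NCM, the control medium. Both media were sampled at 7 times, at the start (T0), after 15 min and 30 min, and after 1 h, 3 h, 6 h and 16 h, in 3 independent experiments. At each time an experiment gave 1 CM and 1 NCM culture from a shared batch of trypsinized cells, so each time has 3 pairs. The sources used here do not give the composition of CM or say what the cells at T0 had received.

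FAS is the cell surface receptor for FAS ligand. When bound, it recruits the adaptor FADD and caspase-8 and starts apoptosis, and hepatocytes are known for their sensitivity to it. BIRC2, also called cIAP1, is a ubiquitin ligase of the inhibitor of apoptosis family that works at TNF receptors, where it promotes canonical NF-kappaB signalling and restrains caspase-8. BCL2L2, also called BCL-w, is an antiapoptotic relative of BCL2 at the outer mitochondrial membrane.

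FAS and BIRC2 lie on chromosomes 10 and 11, and their promoter windows, from 250 bases before to 50 bases after an annotated start site, were taken from RefSeq on GRCh38.p14. 2 of the 3 genes had a window in that table, 3 windows for FAS and 2 for BIRC2, and 1 of each is shown. They are shown because the NF-kappaB, STAT and C/EBP motifs are the ones that inflammatory cytokines are best known to act through in liver cells. Both are given 5′ to 3′ on the plus strand, at chr10:88991181-88991480 for FAS and chr11:102346964-102347263 for BIRC2, and capitals mark a motif match.
FAS: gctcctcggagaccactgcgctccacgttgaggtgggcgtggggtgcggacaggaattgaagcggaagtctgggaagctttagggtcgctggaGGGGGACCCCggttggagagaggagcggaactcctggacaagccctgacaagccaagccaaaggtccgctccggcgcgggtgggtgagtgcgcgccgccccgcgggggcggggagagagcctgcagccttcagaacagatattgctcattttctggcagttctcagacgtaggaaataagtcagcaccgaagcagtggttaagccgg
BIRC2: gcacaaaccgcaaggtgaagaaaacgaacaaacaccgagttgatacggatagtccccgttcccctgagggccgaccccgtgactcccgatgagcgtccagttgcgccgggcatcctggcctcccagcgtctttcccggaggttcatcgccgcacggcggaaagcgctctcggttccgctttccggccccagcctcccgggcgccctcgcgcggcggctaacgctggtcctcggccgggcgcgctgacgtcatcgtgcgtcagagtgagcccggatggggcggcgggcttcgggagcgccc
The printed FAS window holds 1 run, GGGGGACCCC, that matches the kappaB motif on both strands and begins 157 bases before the annotated start site of that window. The printed BIRC2 window holds no match of the kappaB motif, of the GAS motif TTCNNNGAA or of the C/EBP motif TTNNGNAA on either strand. The 2 FAS windows that are not printed hold C/EBP matches and no kappaB or GAS match. They lie upstream of the printed window, which is the only FAS window with a kappaB match. The printed window therefore does not stand for the other 2, and which start site these cells use was not measured. Of 35116 windows of this length in the table, 11.3% hold a kappaB match, 7.7% a GAS match and 36.8% a C/EBP match. These matches describe letters in a window only.

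All levels below are log2 of the quantile normalized intensity, and each change is CM minus NCM on that scale within pairs, with its SE from limma. The hybridization of a probe sets its brightness, so levels of different probes are not compared. The 4 probes differ in how far they stand above the dim end of the array, which limits their precision. The mean level lies at the 7.68th percentile of all probes for FAS, at the 72.6th for BIRC2 probe 5038, at the 36.3rd for BIRC2 probe 8694 and at the 11.6th for BCL2L2. No array was at the floor for FAS or BIRC2, while BCL2L2 was at the floor, a log2 value of -3.62, on 2 NCM arrays. Median intensities of the arrays ranged from 0.354 to 0.807, and the CM and NCM arrays of a pair correlated at 0.824 to 0.957, with the lowest value at T0 in experiment 2. All 14 hepatocyte marker genes listed were measured, at percentiles of 62.3 to 99.4, while the 5 measured leukocyte markers ranged from 8.37 to 70.5 and the 5 stromal and endothelial markers from 8.98 to 58.9. These ranges overlap, and as brightness depends on the probe they do not rank the cell types. A lower level in bulk RNA cannot tell fewer cells of a type from less RNA per cell.

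None of the 24 differences between CM and NCM, 4 probes at the 6 times other than 6 h, passed an adjusted p of 0.05 in limma with Benjamini-Hochberg adjustment over all probes, and 2 had an unadjusted p below 0.05. Of all 13824 probes, 0% passed at T0, 15 min, 30 min, 1 h and 3 h, and 0.00723% passed at 16 h. The adjusted p of the members ran between 0.942 and 1.00. In 6 of the 24 cases CM was higher in 3 of 3 pairs and in 2 it was lower in 3 of 3, both at T0. Among all probes the share higher in 3 of 3 pairs was 9.47% at T0, 11.9% at 15 min, 8.8% at 30 min, 15.6% at 1 h, 14.6% at 3 h and 13.3% at 16 h, and the share lower in 3 of 3 at T0 was 9.19%. In 27 of 28 sets of 3 CM and 3 NCM arrays, 6 h included, the media overlapped, and among all probes 1.17% to 2.76% did not overlap in a given direction at a given time.

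**Figure D1:**
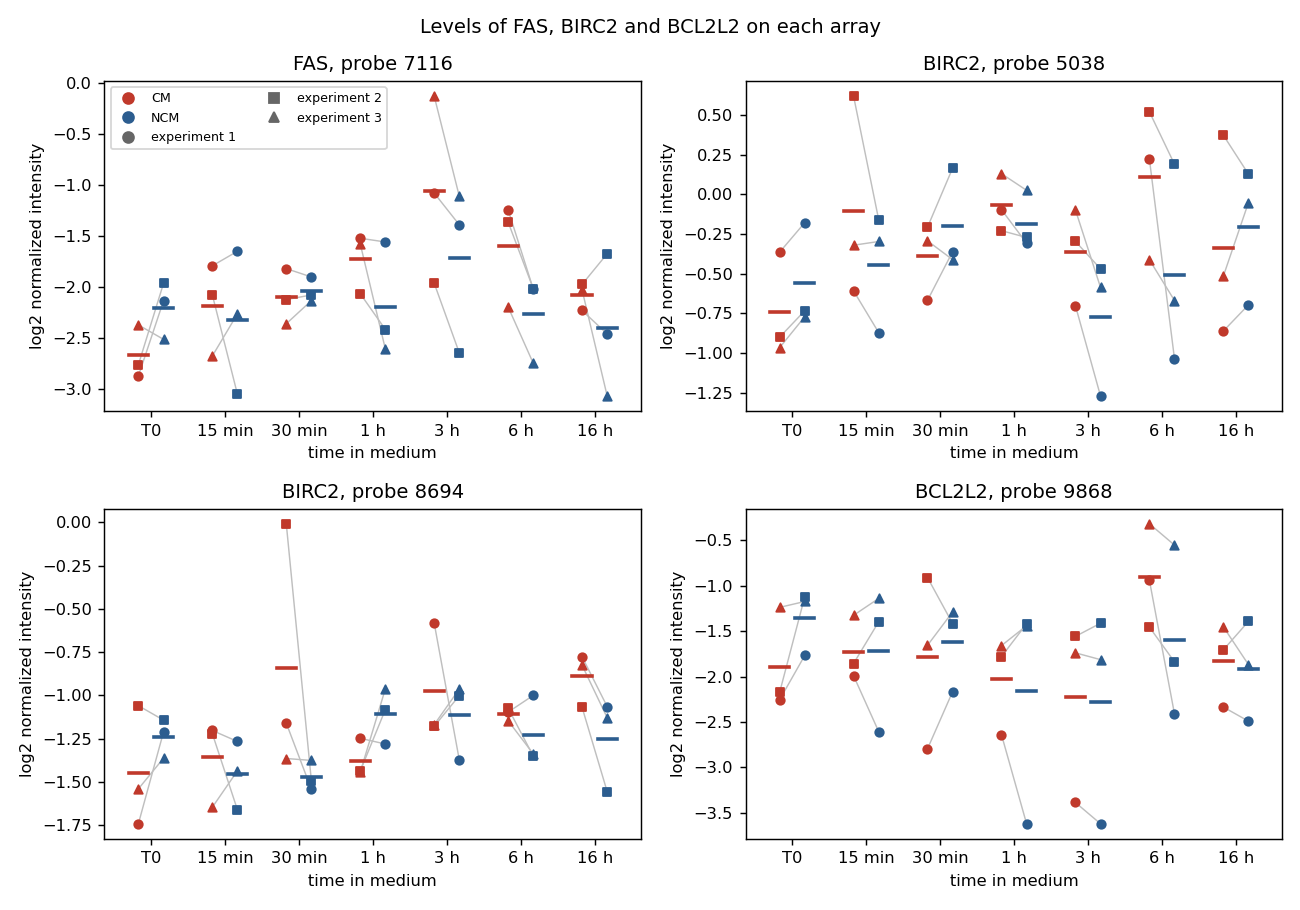
Levels of the 4 probes, as log2 normalized intensity, on each of the 42 arrays by time in medium, with CM in red left of NCM in blue, symbols for the 3 experiments, thin lines joining pairs and bars at the means. CM and NCM overlap in every set except BIRC2 probe 8694 at 30 min, and FAS in CM runs between means of -2.67 at T0 and -1.06 at 3 h.

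FAS, the death receptor, had its highest mean level of the series in CM at 3 h. In experiment 2, though, FAS in CM was higher at 6 h (-1.37) than at 3 h (-1.96). It averaged higher in CM than in NCM at every time except T0 and 30 min, with no difference past the threshold. At 3 h it stood at -1.08, -1.96 and -0.13 in CM for experiments 1, 2 and 3, against -1.39, -2.65 and -1.11 in NCM. CM was higher in each pair, yet the media overlapped, since experiment 2 was low in both. The mean difference was 0.66 (SE 0.27, 95% interval 0.09 to 1.23, n = 3 pairs, limma unadjusted p = 0.0257, adjusted p = 1.00), a fold of 1.58, with pair differences of 0.31, 0.68 and 0.98. Of all probes, 3.26% had an unadjusted p below 0.05 at 3 h.

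At 1 h FAS stood at -1.52, -2.07 and -1.58 in CM, against -1.56, -2.42 and -2.61 in NCM. The mean difference of 0.47 (SE 0.27, limma adjusted p = 0.977, 3 of 3 pairs higher) rested mostly on experiment 3, with 1.03, while experiment 1 had 0.04, and it was 0.19 without experiment 3. With 1 h and 3 h together FAS was higher in 6 of 6 pairs, as was BIRC2 probe 5038, a count made after the values were seen, and 2.81% of all probes did the same. Experiment 2 again had the lowest CM level at 1 h, as at 3 h.

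At 6 h, the time that chose the genes, FAS stood at -1.24, -1.37 and -2.20 in CM, against -2.02, -2.02 and -2.75 in NCM. The pair differences were 0.78, 0.65 and 0.55, with a mean of 0.66 and an SD of 0.11, the most even set of the 3 genes' brightest probes at this time. At 6 h 13.3% of all probes were higher in 3 of 3 pairs. The media overlapped across experiments, since the CM array of experiment 3 lay below the NCM arrays of experiments 1 and 2.

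At 16 h the pairs of FAS disagreed. The receptor stood at -2.23, -1.98 and -2.03 in CM, against -2.46, -1.68 and -3.07 in NCM, a mean difference of 0.32 (SE 0.27, limma adjusted p = 0.942, 2 of 3 pairs higher), which was -0.035 without experiment 3 and 0.64 without experiment 2. The CM cultures were close together and the spread lay in NCM. At T0 the CM levels of -2.88, -2.76 and -2.37 faced NCM levels of -2.14, -1.97 and -2.51, a difference of -0.46 (SE 0.27, limma adjusted p = 1.00) with 1 of 3 pairs higher. At 15 min the mean difference was 0.14 and at 30 min -0.06, with 1 of 3 pairs higher at each.

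Over the 5 times 15 min, 30 min, 1 h, 3 h and 16 h, which leave out both T0 and 6 h, FAS averaged 0.31 higher in CM (SE 0.12, 95% interval 0.05 to 0.56, 10 of 15 pairs higher, limma unadjusted p = 0.0210, adjusted p = 0.970), and 0% of all probes passed. Over 3 h and 16 h the mean was 0.49 (SE 0.19, 5 of 6 pairs higher, limma adjusted p = 1.00), where 0% of probes also passed. The mean over 3 h and 16 h was 0.23 without experiment 3. The SEs of both means treat pairs of 1 experiment at different times as independent, which the labels do not state. These means depend on the scaling of this dim probe, for with median centring in place of quantile normalization the mean over 5 times was 0.0076 and the difference at 16 h was -0.20. The mean over 3 h and 16 h was 0.22 with median centring, 0.23 as deposited and 0.19 with the floor at the 10th percentile. With values as deposited the mean over 5 times was 0.022 and the difference at 16 h -0.28, while the difference at 3 h was 0.64 with median centring and 0.75 as deposited.

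Over time within a medium, the level of FAS passed the threshold in neither CM nor NCM. Over the 6 times other than 6 h the moderated F was 4.30 in CM (limma unadjusted p = 0.0105, adjusted p = 1.00), with means between -2.67 at T0 and -1.06 at 3 h, where 0.00723% of probes passed. Of all probes, 1.03% had an unadjusted p below 0.05 in this F test in CM. In NCM the F was 0.597 (limma adjusted p = 1.00), with means between -2.40 at 16 h and -1.72 at 3 h, where 0.0145% of probes passed. With 1 experiment left out the F ran between 2.45 and 5.53 in CM and between 0.114 and 2.71 in NCM, the highest of each without experiment 2, and as deposited it was 1.78 in CM. Both media had their highest FAS mean at 3 h among those times. The change of CM against NCM at 3 h exceeded that at T0 by 1.12 (SE 0.39, limma unadjusted p = 0.00873, adjusted p = 1.00), that at 1 h exceeded T0 by 0.94 and that at 16 h exceeded T0 by 0.79 (SE 0.39, limma adjusted p = 0.986), with 0% of probes past the threshold for 16 h against T0. Of 60 such differences between times over the 4 probes, 0 passed in limma, 4 had an unadjusted p below 0.05, and the lowest adjusted p was 0.912. Of all probes, 0% passed for any of the 15 pairs of times, and 1.83% to 5.22% had an unadjusted p below 0.05.

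**Figure D2:**
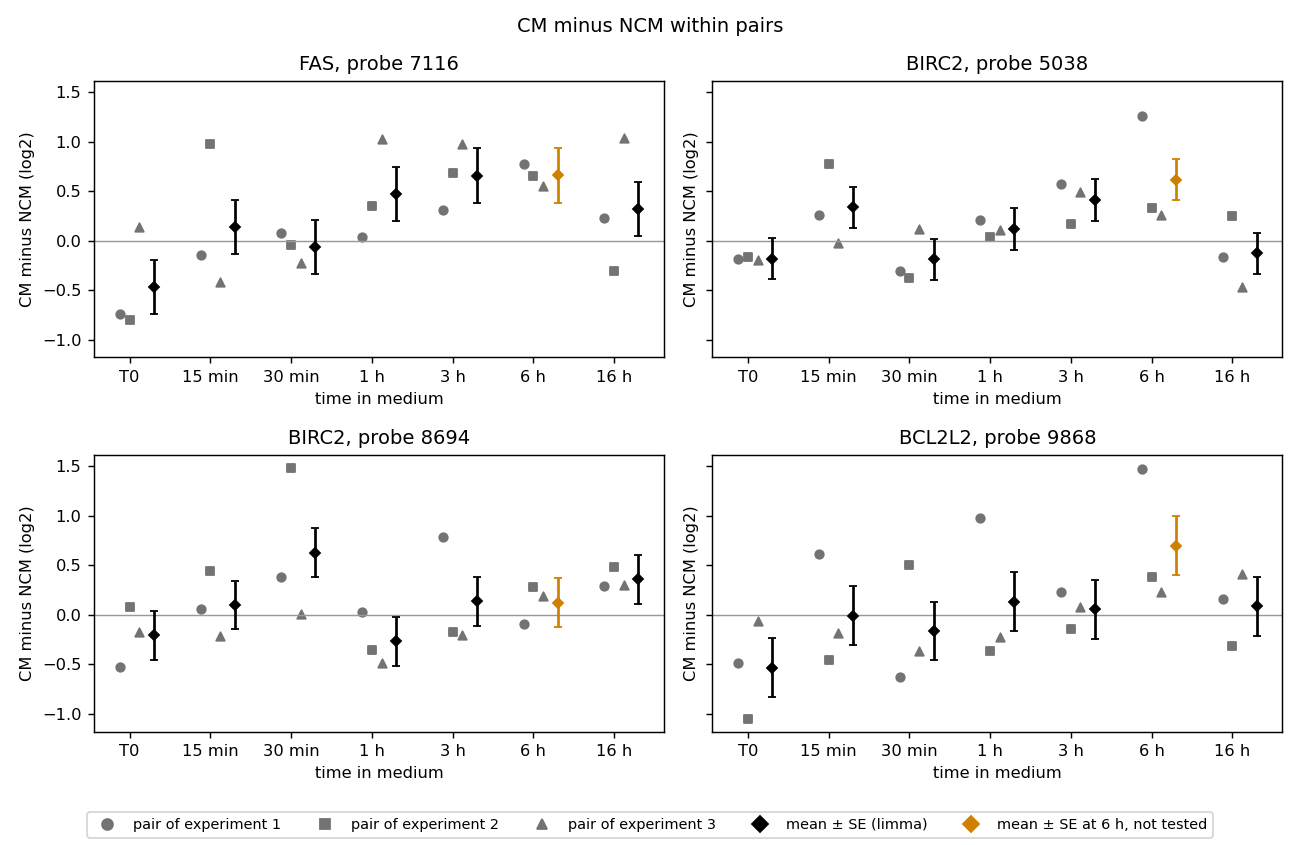
CM minus NCM on the log2 scale for each pair, by time in medium, with symbols for the 3 experiments and diamonds for the mean with its SE from limma, in orange at 6 h where no test was made. FAS lies above 0 in every pair at 1 h, 3 h and 6 h, and at 6 h the pair of experiment 1 stands apart for BIRC2 probe 5038 at 1.26 and for BCL2L2 at 1.48.

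BIRC2, the caspase-8 restraining ubiquitin ligase, was read by 2 probes that did not give the same course. On the brighter probe, 5038, the levels at 6 h were 0.22, 0.52 and -0.41 in CM, against -1.04, 0.19 and -0.67 in NCM. The pair differences were 1.26, 0.33 and 0.26, and the mean of 0.62 was 0.29 without experiment 1. The other probe, 8694, had -1.10, -1.07 and -1.15 in CM and -0.9999, -1.35 and -1.34 in NCM at the same time, a mean difference of 0.12 with 2 of 3 pairs higher. The gene was therefore chosen on 1 of its 2 probes.

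At 3 h probe 5038 stood at -0.70, -0.30 and -0.10 in CM, against -1.27, -0.47 and -0.59 in NCM. The differences were 0.57, 0.17 and 0.49, with a mean of 0.41 (SE 0.21, 95% interval -0.02 to 0.85, limma unadjusted p = 0.0628, adjusted p = 1.00, 3 of 3 pairs higher), and the media overlapped. Probe 8694 had 0.14 at 3 h (SE 0.25, limma adjusted p = 1.00), where experiment 1 gave 0.79 and the others -0.18 and -0.21. The 2 probes thus shared a higher level in CM in experiment 1 and not in the rest.

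At 1 h probe 5038 had differences of 0.21, 0.04 and 0.10, a small mean of 0.12 (SE 0.21, limma adjusted p = 0.986). At T0 it was lower in CM in each pair, by 0.19, 0.17 and 0.20 in size, a mean of -0.18 (SE 0.21, limma adjusted p = 1.00). Within pairs these were the most even values of the probe, but they are small beside the spread of levels between experiments, which ran between -0.97 and -0.37 in CM and between -0.77 and -0.18 in NCM. At 15 min the mean was 0.34, at 30 min -0.19 and at 16 h -0.13, with 2, 1 and 1 of 3 pairs higher.

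The set that did not overlap was probe 8694 at 30 min, where levels were -1.16, -0.01 and -1.36 in CM, against -1.54, -1.50 and -1.38 in NCM. Of all probes, 1.17% separated in this direction at 30 min. The mean difference was 0.63 (SE 0.25, limma unadjusted p = 0.0188, adjusted p = 0.997, 3 of 3 pairs higher), and 3.51% of probes had an unadjusted p below 0.05 at this time. Experiment 2 carried it with 1.49, against 0.38 and 0.01 in the others, and probe 5038 had -0.37 in that same pair. Without experiment 2 the mean was 0.20, and without experiment 3 0.94. At 16 h probe 8694 was higher in each pair, by 0.29, 0.49 and 0.30, with a mean of 0.36 (SE 0.25, limma adjusted p = 0.942). At 1 h it had -0.27, the lowest of its 7 means.

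Over the 5 times without T0 and 6 h, the means were 0.11 on probe 5038 (SE 0.09, 95% interval -0.08 to 0.31, limma adjusted p = 0.989) and 0.19 on probe 8694 (SE 0.11, 95% interval -0.04 to 0.42, limma adjusted p = 0.970), each with 10 of 15 pairs higher. The mean of probe 8694 was 0.097 without experiment 2, 0.34 without experiment 3 and 0.0085 with the neighbour centring described below. The intervals leave room for an average change of up to 1.24-fold on probe 5038 and 1.34-fold on probe 8694. Pair differences of the 2 BIRC2 probes had a Pearson correlation of -0.05 over the 18 pairs outside 6 h (Spearman rho 0.04, permutation p = 0.853 and 0.882). In those pairs, the same gene read by different probes gave no shared course that could be detected.

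BCL2L2, the antiapoptotic BCL2 relative, differed by 0.70 at 6 h, the time that chose it, and by -0.54 at T0, with smaller means at the other times. At 6 h it stood at -0.94, -1.45 and -0.32 in CM, against -2.41, -1.84 and -0.55 in NCM. The pair differences were 1.48, 0.38 and 0.24, so the mean of 0.70 was 0.31 without experiment 1. The level in CM at 6 h, with a mean of -0.90, was the highest of the 14 group means, and the experiment 3 arrays were the highest in both media.

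At T0 the order was the opposite in each pair, with -2.26, -2.18 and -1.24 in CM, against -1.77, -1.12 and -1.17 in NCM. The mean difference was -0.54 (SE 0.30, 95% interval -1.16 to 0.08, limma unadjusted p = 0.0868, adjusted p = 1.00), with -1.05 in experiment 2 and -0.06 in experiment 3, and it was -0.28 without experiment 2. The pair of experiment 2 at T0 is the least correlated pair of arrays in the series. At 1 h and 3 h, the NCM array of experiment 1 was at the floor, so the differences of 0.98 and 0.23 in those pairs are set by it.

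Between these times BCL2L2 scattered around 0, with means of -0.01 at 15 min, -0.16 at 30 min, 0.13 at 1 h, 0.05 at 3 h and 0.09 at 16 h, none of them with all pairs on 1 side. Over the 5 times the mean was 0.02 (SE 0.13, 95% interval -0.26 to 0.30, 7 of 15 pairs higher, limma adjusted p = 0.996). A change of up to 1.23-fold upward or of 0.837-fold downward thus lies within the interval. The F over times was 0.264 in CM and 0.634 in NCM, the smallest in CM among the 4 probes.

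Ordered by mean level over the 14 groups, the probes gave few steps that exceeded the spread of the 3 arrays. Of the 13 gaps between neighbours in that order, FAS had 1 gap larger than the SD of both neighbours, between NCM at 30 min and CM at 1 h, and 0 gaps did so for the other 3 probes. The lowest and highest group means were -2.67 in CM at T0 and -1.06 in CM at 3 h for FAS, and -0.78 in NCM at 3 h and 0.11 in CM at 6 h for BIRC2 probe 5038. For BCL2L2 they were -2.28 in NCM at 3 h and -0.90 in CM at 6 h, and for BIRC2 probe 8694 both lay at 30 min, -1.47 in NCM and -0.84 in CM. The SD of 3 arrays in a group reached 0.92 for FAS, 0.64 for BIRC2 probe 5038, 0.73 for probe 8694 and 1.27 for BCL2L2.

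The probes are numbered, and on some arrays probes with neighbouring numbers moved together. For each member 4 neighbours were taken, at a step of 1 along the numbering and at a step of 24, on the assumption that numbers give places on grids. Over the 21 pairs the correlation of a probe's difference with the mean of its neighbours was 0.06 for FAS, 0.73 for BIRC2 probe 5038, 0.73 for BIRC2 probe 8694 and 0.39 for BCL2L2, with no test since pairs share arrays' layout and cell batches. FAS moved apart from its neighbours, and both BIRC2 probes moved with theirs. At 30 min in experiment 2 the neighbours of BIRC2 probe 8694 had 1.36, beside 1.49 for the probe itself, and their mean over the 3 pairs was 0.52.

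At 6 h in experiment 1, the neighbours of BIRC2 probe 5038 had 0.73, beside 1.26 for the probe, and those of BCL2L2 had -0.56, beside 1.48. With each array's neighbouring deviation subtracted, the 30 min difference of probe 8694 was 0.10 and the 3 h difference of probe 5038 was 0.13, while that of FAS at 3 h was 0.55 and the mean over 5 times 0.27. What part the position on the array had in the differences was not tested.

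**Figure D3:**
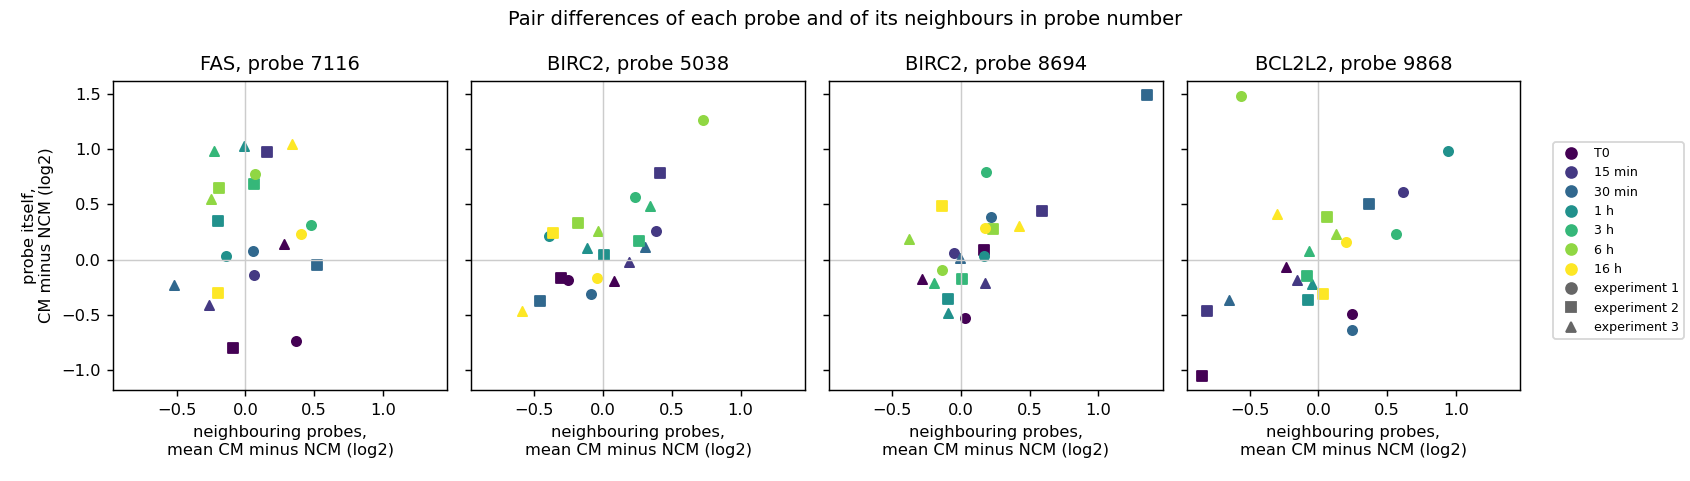
Pair differences, CM minus NCM on the log2 scale, of each probe on the vertical axis against the mean of its 4 neighbours in probe number on the horizontal axis, with colours for the 7 times and symbols for the 3 experiments. Points of both BIRC2 probes rise along the diagonal, with correlations of 0.73, while those of FAS form no slope, with 0.06.

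No shared movement of the members from pair to pair could be detected. Among the 6 relations between the 4 probes over the 18 pairs outside 6 h, Pearson's r ran between -0.05 and 0.32, and the adjusted permutation p between 0.614 and 0.943. The largest, between FAS and BIRC2 probe 5038, had r = 0.32 (permutation p = 0.200, Spearman rho 0.17, p = 0.506) and 0.59 without the 2 pairs farthest from the median. Within experiments 1, 2 and 3 it was 0.37, 0.67 and 0.04, over 6 pairs each. No relation could therefore be shown at this number of pairs.

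Probes of other genes whose pair differences followed the members most closely over all 21 pairs are given as descriptions. For FAS these were PROS1, the anticoagulant protein S, with r = 0.68, HPR, haptoglobin-related protein, with 0.66, and the splicing factor RBM39 with 0.65. HPR was higher in CM by 0.36 over the 5 times and by 0.61 at 6 h, while PROS1 had -0.0022 and -0.25. For BIRC2 probe 5038 they were the proteasome subunit PSMC2 with 0.74, QPRT with 0.72 and ZC3H13 with 0.71, and for probe 8694 PITRM1 with 0.88, TUBGCP2 with 0.84 and SNAPC5 with 0.83. QPRT lies 49 and SNAPC5 23 numbers away from the member they follow. For BCL2L2 they were the pseudogene ANAPC1P2 with 0.75, the proteoglycan decorin, DCN, with 0.73 at a distance of 31 numbers, and annexin A1, ANXA1, with 0.72. The 99th percentile of r over all single-gene probes ranged from 0.49 for FAS to 0.65 for BIRC2 probe 8694.

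Other genes of the same machinery were taken from 9 lists of 97 genes, the 3 members included, of which 38 were measured. Of these, 0 passed the threshold in limma at any of the 6 times other than 6 h, in the means over 5 and over 3 h and 16 h, or at 16 h against T0. Over the 5 times 25 of 38 were above 0 with a median of 0.04, against 50.2% of all 5631 genes with a median of 0.00047, and 6 of 38 had an unadjusted p below 0.05, all higher in CM, against 2.55% of all probes. FAS and MCL1, the short-lived antiapoptotic BCL2 relative, were among these 6, MCL1 with 0.22 (SE 0.11, limma adjusted p = 0.970, 11 of 15 pairs higher). The other 4 were 3 genes of the NF-kappaB list and 1 of the receptor adaptors and regulators. The lists hold the members and were chosen with earlier results of these data known, so the shares given here are a description and no test. Shares of all probes include probes that name no gene, while listed genes are read by their brightest probe. At T0 22 of 38 were above 0, against 50.1% of all genes, and at 16 h 18 of 38, against 53.0%. Over 3 h and 16 h, 3 of 38 had an unadjusted p below 0.05 in limma, all higher in CM, against 2.31% of all probes.

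Among the 4 measured genes listed as death receptors or related receptors, FAS had the highest mean. LTBR, the lymphotoxin beta receptor, followed with 0.04, then the decoy receptor TNFRSF11B with -0.02 and the TRAIL receptor TNFRSF10B with -0.12. The ligands spread around 0, with 0.13 for TRAIL itself, TNFSF10, 0.09 for LTA, -0.01 for TNF and -0.18 for LTB. No receptor or ligand other than FAS had an unadjusted p below 0.05 over the 5 times. Of the adaptors and regulators, the ubiquitin ligase TRAF6 had 0.39 (SE 0.14, limma adjusted p = 0.970), the caspase-8 inhibitor CFLAR 0.12, CRADD 0.01 and PEA15, a death effector domain protein, -0.18. The 2 measured caspases were CASP10 with 0.10 and CASP6 with -0.07.

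The other measured genes of the BIRC2 list lay close to 0. BIRC6, the large inhibitor of apoptosis protein, had 0.05. The mitochondrial protease HTRA2 had 0.07 and XAF1 -0.04, both antagonists of the family and not members of it. Of the relatives of BCL2L2, MCL1 had the 0.22 given above, BCL2A1 0.04 and BCL2 0.03. Of the proapoptotic members, BNIP2 had 0.20, BNIP3L 0.05, BMF -0.08 and BCL2L14 -0.23, with a list median of 0.04. The apoptosome and nuclease list held PARP1 with 0.05, DFFA with -0.02 and AIFM1 with -0.03.

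The NF-kappaB list had the widest range. NFKBIA, which encodes the inhibitor IkappaB alpha, averaged 0.65 over the 5 times (SE 0.12, limma unadjusted p = 2.19e-05, adjusted p = 0.242, 12 of 15 pairs higher), NFKB1 0.36, the deubiquitinase TNFAIP3 0.33, the kinase CHUK 0.11 and the scaffold IKBKG -0.22. NFKBIA had 1.23 at 1 h and 0.70 at 3 h, and NFKB1 0.68 and 1.22, times at which FAS had 0.47 and 0.66. Of the 5 measured genes of this list, 0 passed the threshold at 1 h or at 3 h. At 30 min the highest value of the list was 1.09, while FAS had -0.06. Over the 5 times NFKB1 was higher in 8 of 15 pairs. A relation between FAS and the NF-kappaB genes was not tested. At 6 h, where FAS, BIRC2 and BCL2L2 were chosen, NFKBIA had 0.11 and NFKB1 0.32.

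**Figure D4:**
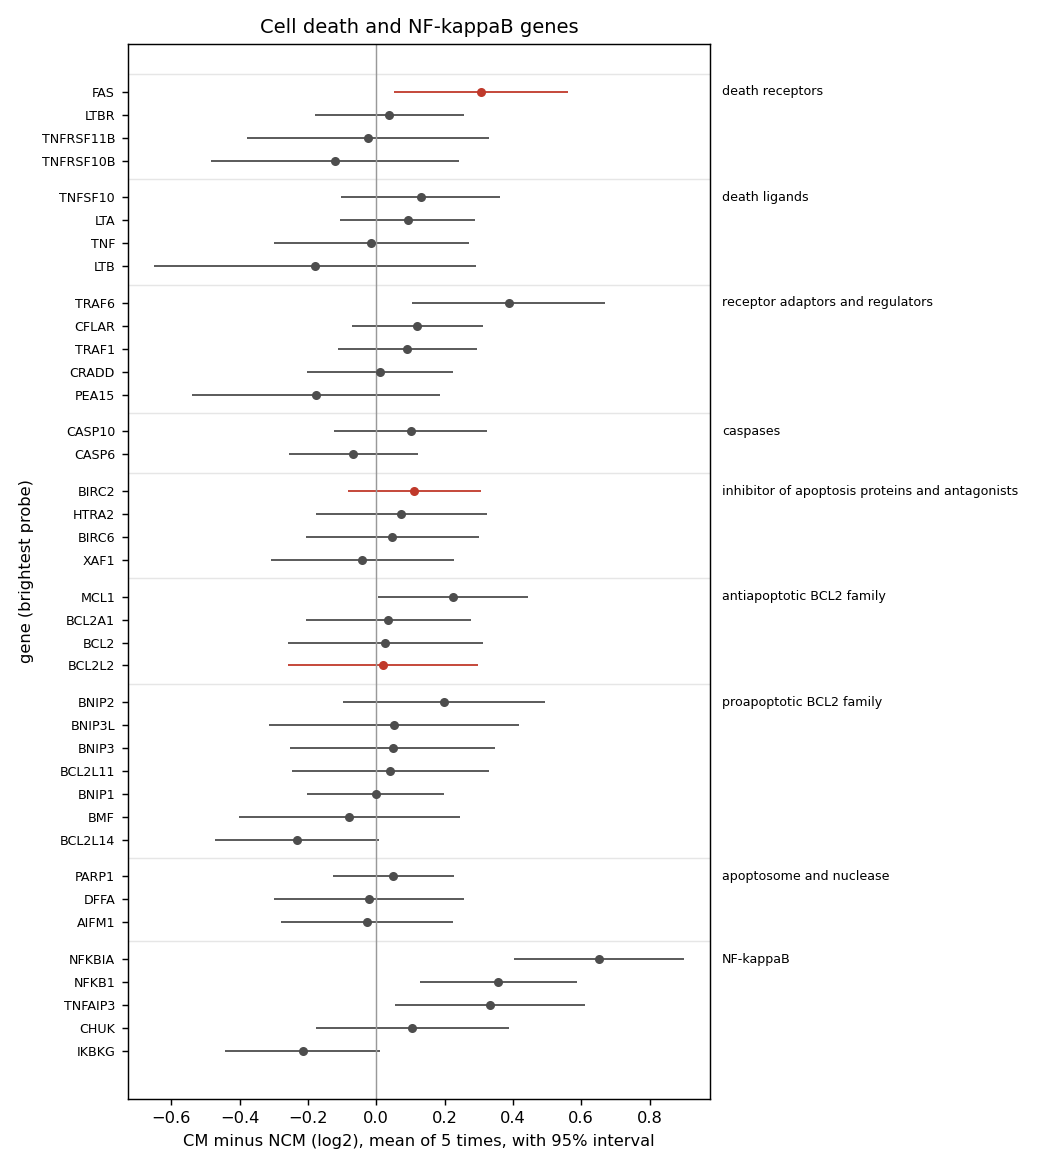
CM minus NCM on the log2 scale, as the mean over 15 min, 30 min, 1 h, 3 h and 16 h with its 95% interval, for the 38 measured genes of 9 lists of cell death and NF-kappaB genes, with FAS, BIRC2 and BCL2L2 in red. FAS lies at 0.31 at the head of the list of death receptors and related receptors. BIRC2 lies at 0.11 and BCL2L2 at 0.02, below MCL1 at 0.22 in its list, and NFKBIA lies farthest right at 0.65.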

How the data were processed

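The deposited values are linear array intensities. How the authors scanned, background-corrected and scaled the arrays, and the array type, is not given in the sources used here. The authors' values had a mean near 1 on each array (0.999 to 1.00), and at most 2.12% of an array's probes were below 0. They were quantile normalized, floored at the common 1st percentile of 0.0812 and log2 transformed. Tests used R 4.3.3 with limma 3.58.1 on all 42 arrays. The model held a term for each pair and a CM effect at each time, which left 14 residual degrees of freedom. The spread was moderated towards a prior SD of 0.31 (6.26 prior degrees of freedom), and p-values were adjusted by Benjamini-Hochberg over all 13824 probes. The 6 h contrast was not tested for the members.

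Pairs come from the labels, which name a shared batch of cells. In the values, paired arrays deviated together: after group means were removed, r was between 0.308 and 0.754, above 0.1 for all 21 pairs. Whether an experiment number means 1 batch across times is not stated, so F tests had no block. For the same reason the means over several times treat their pairs as independent. If pairs of 1 experiment are related, the SEs, intervals and p-values of those means may be too narrow. p-values measure the spread between these pairs, and precision is limited by how many arrays there are. Correlations between members used 100000 permutations.

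Genes were named from the array annotation. Of 7336 probes with 1 gene, 7322 matched a RefSeq gene table, 576 probes named several genes and 5912 none. The text names all probes of FAS, BIRC2 and BCL2L2, per list up to 2 genes with the largest and 2 with the smallest mean change, and per member probe the 3 most alike genes. The second BIRC2 probe was added to the last, and TNFAIP3 was named outside this rule. Genes of a list are read by their brightest probe. The members and lists were chosen with earlier results of these data known. Alternatives were no pair term, values as deposited, median centring, a floor at the 10th percentile, leaving out the dimmest 25% of probes, each time alone, an intensity trend with robust spread, the mean of a gene's probes and leaving out each replicate. FAS and BCL2L2 lie among the dimmest 25%, so leaving those out gave values for the BIRC2 probes only. Neighbour centring and leaving out the least correlated pair were added after seeing the data. Fits were tested on simulated data. Plots used Python 3.11.15 with matplotlib 3.10.9.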

Additional observations from a re-analysis of the deposited data

Results flagged for a closer look

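BIRC2 probe 5038 differed in direction between T0 and later times. It was lower in CM in 3 of 3 pairs at T0, with a mean of -0.18, and higher in 3 of 3 pairs at 1 h, with 0.12, and at 3 h, with 0.41. The change at 1 h exceeded that at T0 by 0.30 (SE 0.30, limma unadjusted p = 0.318, adjusted p = 1.00), and the change at 3 h exceeded it by 0.59 (SE 0.30, limma unadjusted p = 0.0578, adjusted p = 1.00). The tests of the difference did not pass, and 0 of 13824 probes passed for either pair of times in limma, with 412 and 385 at an unadjusted p below 0.05.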

How the results depend on the processing

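Of the 536 member values recomputed under the alternatives, 488 kept their direction and side of the threshold. At 6 h, keeping meant staying within 1 SD of the pairs. Of these 488, 132 had a value over 1.5 times larger or smaller. The adjusted p of every tested member stayed above 0.05. Part of this outcome was fixed in advance. Fits without the pair term, of each time alone, with the intensity trend or without the dimmest probes cannot change a difference, only its spread. Leaving out the least correlated pair, at T0, can change only differences that involve T0. F values have no direction, and in the main fit the lowest adjusted p at the tested times was 0.942. The count of 488 is thus no measure of stability. Without the pair term (no replicate block) 0 probes were called at 16 h in place of 1, and no member's call changed. Median centring shifted the median of all probes by -0.11 at 30 min, -0.11 at 3 h and 0.12 at 6 h. The cause of the differences below was not tested.

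FAS at 15 min was -0.18 as deposited, -0.20 with median centring and -0.047 with the floor at the 10th percentile. With that floor it was 0.027 at 30 min, 0.48 at 6 h, -0.085 at 16 h and -0.048 for 16 h minus T0. At 6 h it was 0.44 as deposited and 0.78 with neighbour centring, and at 16 h -0.28 as deposited and -0.20 with median centring. Averaged over its probes, BIRC2 was 0.22 at 30 min, -0.074 at 1 h and 0.12 at 16 h. With neighbour centring, probe 5038 was 0.20 at 16 h and probe 8694 -0.14 at 15 min, and probe 8694 was -0.079 at 6 h as deposited.

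BCL2L2 with neighbour centring was 0.11 at 15 min, -0.14 at 1 h, -0.083 at 3 h and -0.031 over 5 times. With the higher floor it was 0.046 at 30 min, -0.19 at 1 h, -0.023 at 3 h and -0.065 over 5 times. As deposited it was -0.044 at 3 h, -0.34 at 16 h, -0.011 over 5 times and -0.19 over 3 h and 16 h. With median centring these were -0.15, -0.26, -0.026 and -0.20.

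Leaving out 1 experiment gave ranges of -0.28 to 0.42 at 15 min, -0.14 to 0.018 at 30 min and -0.035 to 0.64 at 16 h for FAS, the last at its lowest without experiment 3. BIRC2 probe 8694 ranged from -0.074 to 0.25 at 15 min and -0.19 to 0.31 at 3 h, and probe 5038 from -0.31 to 0.040 at 16 h and -0.12 to 0.22 for 16 h minus T0. BCL2L2 ranged from -0.32 to 0.21 at 15 min, -0.50 to 0.070 at 30 min, -0.29 to 0.38 at 1 h, -0.035 to 0.15 at 3 h, -0.079 to 0.29 at 16 h, -0.11 to 0.11 over 5 times and -0.017 to 0.22 over 3 h and 16 h. Called probes ranged from 0 to 1 at T0, 1 h and 6 h, 0 to 3 at 16 h, 0 to 107 over times in CM and 0 to 84 in NCM, the highest of the last 2 without experiment 1.

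Called probes at 16 h were 0 as deposited, with median centring and for each time alone, 2 with the higher floor and without the dimmest 25% of probes, 3 with the intensity trend and 4 with neighbour centring. At 3 h 1 was called with the higher floor, without the dimmest 25% and with the trend, and the trend called 1 in each mean. Over times in CM the count was 0 with median centring and with probes averaged, and 2 with the trend and with neighbour centring. In NCM it was 1 as deposited and with median centring, and 0 with probes averaged.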
